A study of Mus musculus with 10 samples.

Results

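The 10 genes of Toll-like receptor and cytokine signalling followed here were the receptors Tlr2 and Tlr4, their adaptor Myd88, the NF-kappaB inhibitor Nfkbia, the cytokines Tnf, Il1b and Il6, the feedback inhibitor Socs3, the chemokine Ccl2 and the adhesion molecule Icam1. They were chosen by name as members of this pathway, and for each gene the probe set with a single gene symbol and the highest mean over the 10 arrays was used. All 10 were measured, of 19938 named genes in all. The arrays came from mice with a knockdown (KD) of VAChT, the vesicular acetylcholine transporter encoded by Slc18a3, and from wild-type (WT) mice. There were 3 KD and 3 WT arrays of ventricular cardiomyocytes, the contractile muscle cells, and 2 KD and 2 WT arrays of whole hearts. The series title gives the genotype of the mutant whole hearts as KDHOM. All mice were male, C57BL/6, 3 months old and untreated, and the RNA of 2 samples was pooled for each array. Which cells the allele lowers VAChT in is not given in the sources used here. Nothing says that the arrays were otherwise separate animals, so the p-values reflect only how far these arrays spread, part of which may be technical.

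Toll-like receptors sense microbial products and molecules released from injured cells, and most of them signal through the adaptor Myd88 to the transcription factor NF-kappaB. NF-kappaB is held in the cytoplasm by inhibitors such as Nfkbia and, once released, switches on cytokines, chemokines, adhesion molecules and Nfkbia itself. Interleukin-6 acts through JAK kinases and STAT3, which induce Socs3, a brake on the same receptor. In the heart these genes are known for their part in the response to injury, and acetylcholine is known to restrain cytokine release from macrophages.

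On GRCm38.p6 the receptor and signalling genes lie as follows: Tlr2 at chr3:83836272-83841824, Tlr4 at chr4:66827551-66846581, Myd88 at chr9:119335934-119340018 and Nfkbia at chr12:55489409-55492647. The cytokine genes are Tnf at chr17:35199367-35202007, Il1b at chr2:129364569-129371164 and Il6 at chr5:30013114-30019975. The remaining genes are Socs3 at chr11:117966079-117970336, Ccl2 at chr11:82035577-82037452 and Icam1 at chr9:21015940-21028814.

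Promoters are shown because NF-kappaB and STAT3 are known regulators of genes in this pathway. Each sequence is the 250 bases before the start used in a promoter table made from RefSeq on GRCm38.p6, written 5′ to 3′ on the gene's own strand. For Socs3 that start lies inside the gene span given above, and so does the whole window and its match. For Tlr2 the start, most of the window and its match also lie inside the gene span, while the windows of Nfkbia and Il6 end where the span begins. Promoters of 8 of the 10 genes were matched. Capitals mark matches to a form of the NF-kappaB element (GGG, any 3 bases, then TTCC) in Tlr2, Nfkbia and Il6, and to TTCNNNGAA, a form of the STAT element, in Socs3; both strands were searched and the printed matches do not overlap.
Tlr2, chr3:83841609-83841858, minus strand: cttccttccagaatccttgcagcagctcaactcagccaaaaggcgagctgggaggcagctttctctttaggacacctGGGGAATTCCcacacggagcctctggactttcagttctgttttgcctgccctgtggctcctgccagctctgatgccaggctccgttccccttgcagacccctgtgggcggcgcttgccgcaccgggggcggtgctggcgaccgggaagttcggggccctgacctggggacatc
Nfkbia, chr12:55492648-55492897, minus strand: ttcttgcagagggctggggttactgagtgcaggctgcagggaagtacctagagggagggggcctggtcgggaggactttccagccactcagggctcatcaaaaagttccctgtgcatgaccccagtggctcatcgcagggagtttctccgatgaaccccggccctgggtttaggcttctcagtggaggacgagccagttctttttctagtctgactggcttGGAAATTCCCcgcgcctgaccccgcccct
Il6, chr5:30012864-30013113, plus strand: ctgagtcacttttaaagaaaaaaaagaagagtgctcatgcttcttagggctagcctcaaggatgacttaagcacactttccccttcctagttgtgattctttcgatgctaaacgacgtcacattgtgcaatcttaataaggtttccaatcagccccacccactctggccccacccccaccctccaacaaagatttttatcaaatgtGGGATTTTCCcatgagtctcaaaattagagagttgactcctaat
Socs3, chr11:117969367-117969616, minus strand: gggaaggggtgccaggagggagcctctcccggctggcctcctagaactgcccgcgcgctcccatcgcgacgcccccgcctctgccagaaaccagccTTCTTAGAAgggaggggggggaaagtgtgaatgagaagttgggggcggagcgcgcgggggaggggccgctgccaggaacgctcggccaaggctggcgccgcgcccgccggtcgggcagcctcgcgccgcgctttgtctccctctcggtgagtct
The NF-kappaB form was found in 3 of the 8 promoters (GGGGAATTCC at -173 to -164 in Tlr2, GGAAATTCCC at -29 to -20 in Nfkbia and GGGATTTTCC at -44 to -35 in Il6, counted from the start in that table), against 4.65% of 32851 promoters of the same length. The STAT form was found in Socs3 at -154 to -146, in Myd88 at -46 to -38 and in Icam1 at -42 to -34, which makes 3 of 8 against 7.02% of promoters. The promoters of Tnf and Il1b held neither form, and those of Myd88, Icam1, Tnf and Il1b are not printed. The matches describe letters in the window and were not set against binding or the array values.

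Values are the authors' log2 intensities, so a difference of 1 is a 2-fold difference in signal. The median over all probe sets of an array was 5.82 to 5.93 in cardiomyocytes and 7.25 to 7.31 in hearts, so the 2 kinds of sample appear to have been normalized apart and values were compared only within a kind. As a background level, the 95th percentile of 1194 olfactory and vomeronasal receptor genes, which a heart should hardly express, was 5.51 to 5.72 in cardiomyocytes and 7.03 to 7.17 in hearts. The files gave no detection calls. All 8 cardiomyocyte markers and all 8 endothelial markers lay above this level on every array, and 5 of 11 macrophage markers did so on every cardiomyocyte array against 11 of 11 on every heart array. The targeted gene, Slc18a3, was not lower in KD: KD minus WT was 0.16 (SE 0.16) in cardiomyocytes and 0.05 (SE 0.19) in hearts, with an adjusted p of 1 from limma in both, and where its probes lie relative to the altered allele is not given in the sources used here. KD heart replicate 1 stood apart: its thymocyte and T cell markers were 3.56 and 1.71 above the WT mean as list medians, against 0.21 and -0.05 on KD heart replicate 2.

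The receptor, adaptor, inhibitor, chemokine and adhesion genes gave signal above background, and the 3 cytokines largely did not. Tlr2, Tlr4, Myd88, Nfkbia, Socs3, Ccl2 and Icam1, 7 of the 10, lay above background on every array of both kinds; of all genes, 58.9% did so in cardiomyocytes and 58.4% in hearts. Il1b and Il6 lay above it on none of the 10 arrays, and Tnf on 1, WT cardiomyocyte replicate 2. Tnf depended on the cut. Against the 90th percentile of the same receptor genes it lay above on 3 of 3 KD and 3 of 3 WT cardiomyocyte arrays. In hearts it did so on 1 of 2 KD arrays and on no WT array. Il1b lay above that lower level on 1 of 2 WT hearts alone, and Il6 on no array. The number of arrays and these low signals limit what can be said of the cytokines: a difference in their values is not shown to be one in their RNA. The plot of each gene's distance from the background level shows every array.

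**Figure D1:**
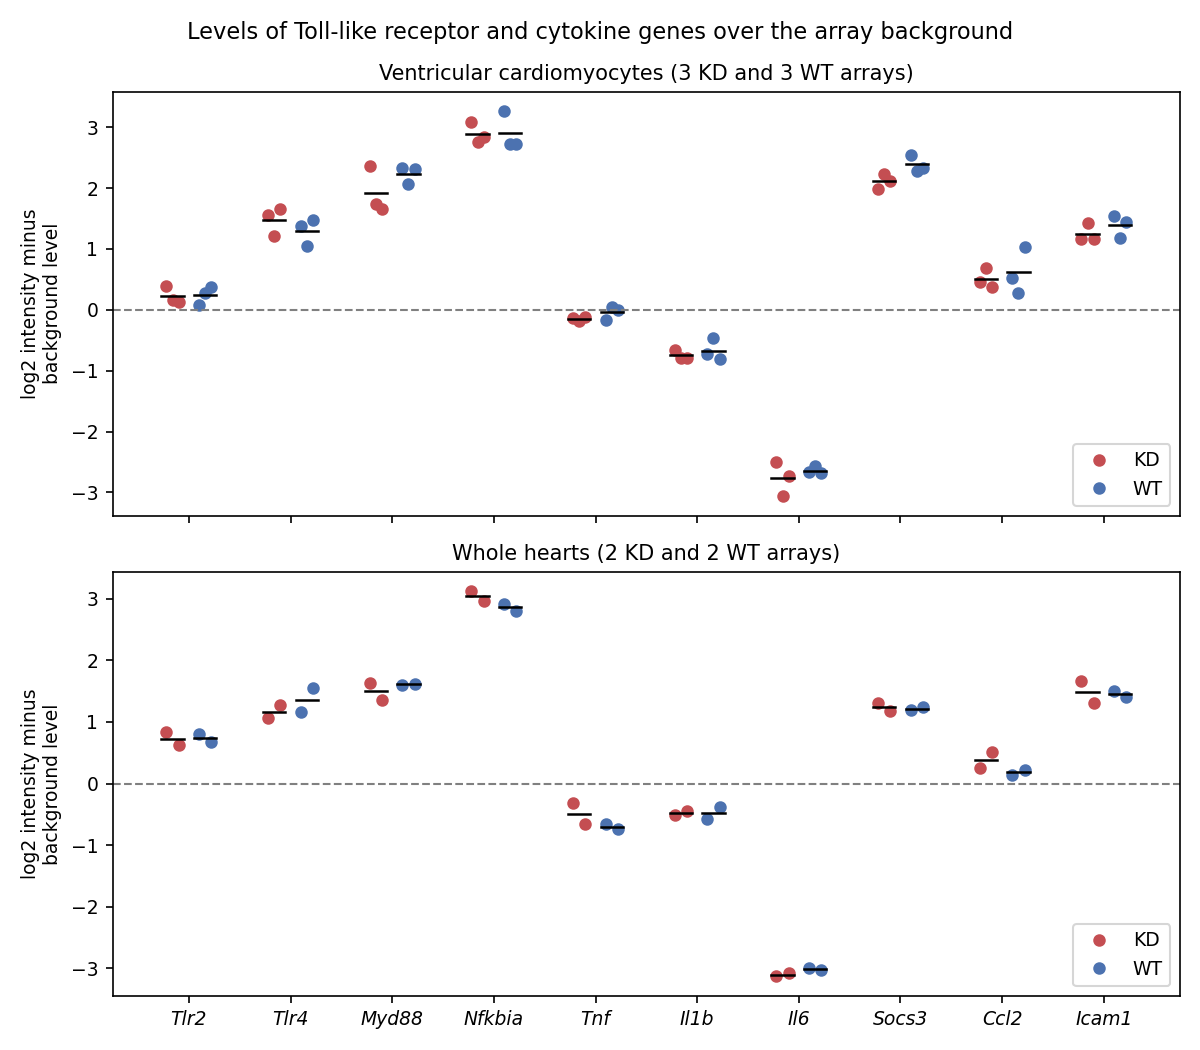
Log2 intensity of each of the 10 genes minus the background level of the same array (95th percentile of olfactory and vomeronasal receptor genes, dashed line at 0), for cardiomyocytes and whole hearts, with KD left of WT and each point an array. Short bars are group means. Of the 10 genes 7 lie above the line on every array, and Il1b and Il6 lie below it on every array; distances of different genes also hold differences between probes.

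The position of each gene among all genes of its array, a rank of signal that also reflects the probes, is given as a description with no test. Nfkbia lay at percentiles 82.6 to 87.7 in cardiomyocytes and 92.2 to 94.3 in hearts. Il6 lay at percentiles 0.14 to 1.14 in cardiomyocytes and 1.49 to 2.03 in hearts. Several genes had ranks in hearts that did not overlap those in cardiomyocytes, but the share of all genes that did so was not computed. Tlr2 lay at percentiles 39.2 to 44.9 in cardiomyocytes and 56.0 to 59.4 in hearts, and Icam1 at 58.3 to 66.7 in cardiomyocytes and 73.7 to 77.3 in hearts. Socs3 was the other way round by a narrow margin, at percentiles 71.2 to 80.0 in cardiomyocytes and 68.9 to 71.0 in hearts. Tnf was also the other way round, at 34.2 to 38.2 in cardiomyocytes and 22.0 to 29.3 in hearts, below background on all heart arrays. These ranks set isolated cells against tissue, whose protocols name different labelling manuals and whose values appear to have been normalized apart. In bulk samples fewer cells of a type and less RNA per cell cannot be told apart.

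In KD cardiomyocytes none of the 10 genes passed the test against WT cardiomyocytes, and on none did the 3 KD and 3 WT arrays lie apart, while 6.21% of all genes had arrays that did not overlap. The differences ran from -0.27 for Myd88 to 0.23 for Tlr4, with a median of -0.05 beside a median of -0.0001 over all genes. They were below 0 for 7 of the 10, against 50% of all genes. The adjusted p from limma, over 19938 genes at 0.05, was 1 for each; 0 of all genes passed, and 0 of the 10 had an unadjusted p under 0.05 where 419 genes (2.1%) did. The 95% confidence intervals of the 10 genes, each for a single gene, spanned -0.57 to 0.54, or 0.676-fold to 1.45-fold in signal. Those of Tnf, Il1b and Il6 rest on signals near or below background and do not bound changes in their RNA.

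Among the receptors, Tlr4, which senses bacterial lipopolysaccharide, had log2 intensities of 7.06, 6.94 and 7.25 in the 3 KD cardiomyocyte arrays and 6.91, 6.65 and 7.01 in the 3 WT arrays. The highest value was a KD array and the lowest a WT array, but WT replicate 3 lay above KD replicate 2, so the groups overlapped. The difference was 0.23 (SE 0.14, 95% interval -0.09 to 0.54) and lay between 0.12 and 0.30 when any one cardiomyocyte array was left out. Tlr2, which senses bacterial lipoproteins, had 5.90, 5.88 and 5.73 in KD and 5.62, 5.88 and 5.90 in WT cardiomyocytes. Both groups covered nearly the same range, and the difference was 0.04 (SE 0.11, interval -0.19 to 0.27).

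Myd88, the adaptor of both receptors, had 7.86, 7.47 and 7.26 in KD and 7.87, 7.68 and 7.84 in WT cardiomyocytes. KD replicates 2 and 3 lay below all 3 WT arrays, while KD replicate 1 lay among them. The difference was -0.27 (SE 0.14, interval -0.57 to 0.03); its unadjusted p of 0.0784 from limma was the smallest of the 10 genes in cardiomyocytes. It was -0.43 without KD replicate 1 and -0.13 without KD replicate 3. Nfkbia, the inhibitor that NF-kappaB induces, had 8.58, 8.49 and 8.43 in KD and 8.80, 8.33 and 8.25 in WT cardiomyocytes. The 3 KD values lay inside the WT range, and the difference was 0.04 (SE 0.13, interval -0.25 to 0.33).

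Of the cytokines, Tnf, a trigger of the inflammatory response, had 5.37, 5.54 and 5.47 in KD and 5.37, 5.66 and 5.53 in WT cardiomyocytes, a difference of -0.05 (SE 0.11). Il1b, which is made as a precursor and released after cleavage, had 4.85, 4.92 and 4.81 in KD and 4.80, 5.14 and 4.73 in WT cardiomyocytes, with all KD values inside the WT range and a difference of -0.03 (SE 0.12). Il6, an inducer of the acute phase response, had 3.01, 2.66 and 2.86 in KD and 2.86, 3.03 and 2.85 in WT cardiomyocytes, a difference of -0.07 (SE 0.11). All of these values except Tnf on WT replicate 2 lay below background, and each KD range overlapped its WT range.

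Socs3, the feedback inhibitor, had 7.49, 7.96 and 7.71 in KD and 8.08, 7.89 and 7.86 in WT cardiomyocytes. KD replicates 1 and 3 lay below every WT array and KD replicate 2 lay among them. The difference was -0.23 (SE 0.12, interval -0.49 to 0.04), between -0.35 and -0.11 when one array was left out. Socs3 had a second, dimmer probe set, which averaged 5.77 ± 0.27 in KD cardiomyocytes and 5.64 ± 0.05 in WT cells (SD, n = 3 each). The 2 probe sets thus differed in sign, the second near the background level of 5.51 to 5.72. Ccl2, which draws monocytes into tissue, had 5.97, 6.41 and 5.98 in KD and 6.06, 5.88 and 6.56 in WT cardiomyocytes; the arrays interleaved and the difference was -0.05 (SE 0.18). Icam1, to which leukocyte integrins bind, had 6.67, 7.16 and 6.76 in KD and 7.07, 6.79 and 6.98 in WT cardiomyocytes. Its highest value and its 2 lowest were KD arrays, and the difference was -0.08 (SE 0.14, interval -0.38 to 0.21).

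In KD hearts none of the 10 genes passed the test against WT hearts. The arrays of 3 genes did not overlap: Nfkbia and Tnf were on the higher side in both KD hearts and Myd88 on the lower side, that is 3 of 10, where 29.6% of all genes had arrays that did not overlap (14.2% with KD higher and 15.4% with KD lower). Differences ran from -0.18 for Tlr4 to 0.21 for Tnf, with a median of 0.01 over the 10 genes and 0.01 over all genes. They were below 0 for 5 of the 10, against 47.4% of all genes. The adjusted p from limma was 1 for each, 0 of all genes passed, and 0 of the 10 had an unadjusted p under 0.05 where 982 genes (4.93%) did. The 95% intervals of the 10 spanned -0.57 to 0.67, or 0.674-fold to 1.59-fold.

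Tlr4 had 8.10 and 8.44 in KD hearts and 8.26 and 8.65 in WT hearts. The arrays alternated, and the difference of -0.18 (SE 0.18, interval -0.57 to 0.20) became 0.01 when WT replicate 2 was left out and -0.38 when WT replicate 1 was. Tlr2 had 7.87 and 7.79 in KD hearts and 7.90 and 7.78 in WT hearts, a difference of -0.01 (SE 0.13, interval -0.29 to 0.27). Its KD values lay inside the WT range. Myd88 had 8.67 and 8.53 in KD hearts and 8.71 and 8.72 in WT hearts. The KD arrays were the 2 lower ones, replicate 1 by a margin far smaller than the SE, and the difference was -0.12 (SE 0.17, interval -0.48 to 0.25), or -0.19 without KD replicate 1 and -0.04 without KD replicate 2.

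Nfkbia had 10.15 and 10.14 in KD hearts and 10.02 and 9.91 in WT hearts. Both KD values lay above both WT values, and the difference was 0.18 (SE 0.16, interval -0.17 to 0.53), from 0.13 to 0.23 when one heart array was left out. Tnf had 6.71 and 6.51 in KD hearts and 6.44 and 6.37 in WT hearts. Both KD values were the higher ones, all 4 lay below background, and the difference of 0.21 (SE 0.13, interval -0.07 to 0.49) became 0.11 when KD replicate 1, which carried the thymocyte markers, was left out. Its unadjusted p of 0.133 from limma was the smallest of the 10 genes in hearts.

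Il1b had 6.52 and 6.72 in KD hearts and 6.53 and 6.72 in WT hearts, a difference of -0.01 (SE 0.15). Il6 had 3.90 and 4.09 in KD hearts and 4.10 and 4.09 in WT hearts, a difference of -0.10 (SE 0.13). Both cytokines lay below background on all 4 arrays, and KD and WT arrays overlapped. Socs3 had 8.33 and 8.36 in KD hearts and 8.30 and 8.35 in WT hearts, a difference of 0.02 (SE 0.15, interval -0.30 to 0.35). The 4 values lay between 8.30 and 8.36, with the groups overlapping. The second Socs3 probe set spread more, at 7.70 ± 0.40 in KD hearts and 7.68 ± 0.07 in WT hearts (SD, n = 2 each). Ccl2 had 7.29 and 7.69 in KD hearts and 7.25 and 7.33 in WT hearts. KD replicate 2 was the highest, and the difference of 0.20 (SE 0.22, interval -0.26 to 0.67) was 0.005 without it and 0.40 without KD replicate 1. Icam1 had 8.70 and 8.48 in KD hearts and 8.61 and 8.51 in WT hearts, a difference of 0.03 (SE 0.17), which was -0.08 without KD replicate 1. The KD arrays held both its highest and its lowest value. Without KD replicate 1 the median difference of the 10 genes was 0.01, and 0 of the 10 passed.

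**Figure D2:**
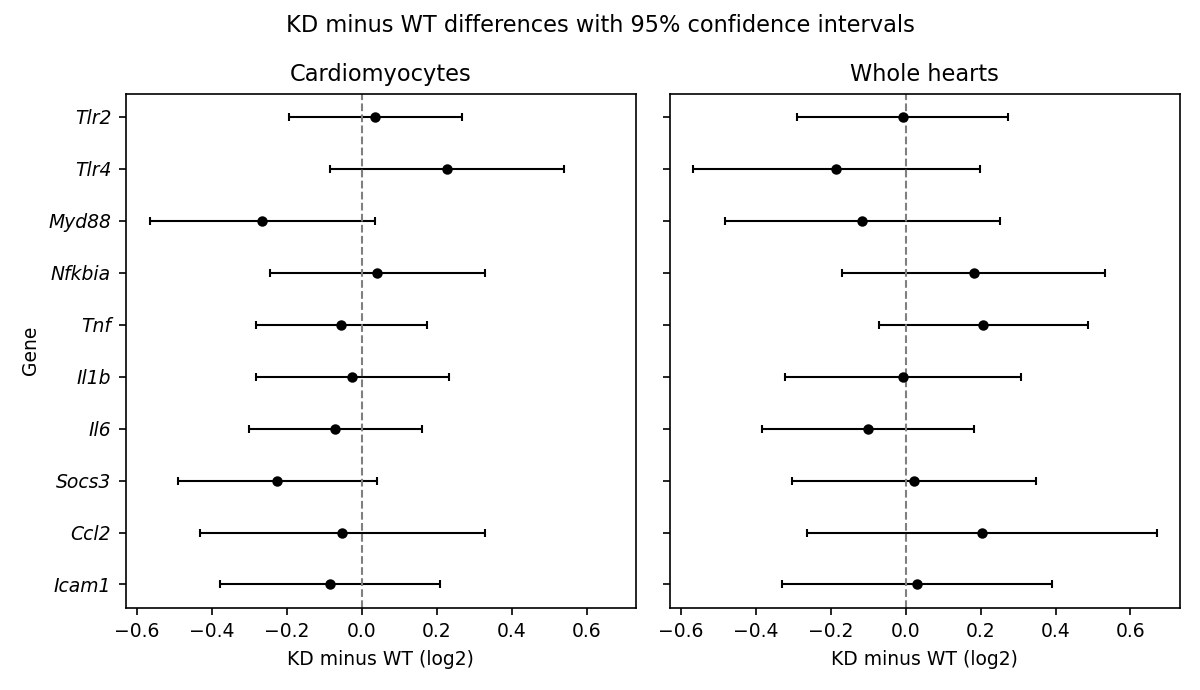
KD minus WT difference in log2 intensity (points) with its 95% confidence interval from limma (bars) for each of the 10 genes, in cardiomyocytes (3 KD and 3 WT arrays) and hearts (2 KD and 2 WT arrays); the dashed line marks no difference. Every interval covers 0; the lowest bounds are -0.57 in both kinds of sample and the highest are 0.54 and 0.67.

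The differences themselves were compared between cardiomyocytes and hearts in the same fit. Tlr4 had the largest gap, a KD effect 0.41 higher in cardiomyocytes than in hearts (SE 0.23, interval -0.08 to 0.91, unadjusted p of 0.0954 from limma), which lay between 0.21 without WT heart replicate 2 and 0.61 without WT heart replicate 1. The gap, cardiomyocytes minus hearts, was -0.26 (SE 0.17) for Tnf, and it was -0.26 (SE 0.28) for Ccl2 and -0.25 (SE 0.19) for Socs3. With 1 array left out these ran from -0.36 to -0.16 for Tnf (without KD heart replicate 2 and 1), -0.45 to -0.06 for Ccl2 (without KD heart replicate 1 and 2) and -0.37 to -0.13 for Socs3 (without KD cardiomyocyte replicate 2 and 1). None of the 10 passed, each with an adjusted p of 0.999, and 0 had an unadjusted p under 0.05, where 696 of all genes (3.49%) did. The intervals of the 10 gaps spanned -0.86 to 0.91.

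Ccl2, Tlr4 and Myd88 varied most among the 10 once each tissue's mean was removed, with SDs of 0.236, 0.202 and 0.195 over the 10 arrays, and Tlr2 least, with 0.0940. The SD of Ccl2 lay at percentile 93.6 of all genes and that of Tlr2 at 18.4. Tissue-centred profiles were compared over the 10 arrays by root mean square difference. Of the genes searched, the closest to Ccl2, whose own root mean square was 0.224, were Atp2c2 (0.0817), Ccdc63 (0.0927) and Sowaha (0.0940). For Tlr4, with 0.192, they were Zfp560 (0.0762), Ndn (0.0831) and Irak1bp1 (0.0837). For Myd88, with 0.185, they were Prrg4 (0.0583), Fam199x (0.0791) and Fam124b (0.0816). None of these neighbours was another of the 10 genes. Predicted transcripts, short non-coding RNAs and the olfactory and vomeronasal receptor genes had been dropped before this search. The neighbours are thus the closest of the remaining genes, and a closer profile among the dropped ones is not excluded.

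The rest of the pathway was read through 7 lists, in which 110 of 124 genes were measured. None of these genes passed the test in cardiomyocytes or in hearts. Of 13 further Toll-like receptors and co-receptors, 5 lay above background on every cardiomyocyte array and 4 on every heart array, and Tlr1, Tlr6, Tlr8 and Tlr12 were among those on no array. In cardiomyocytes 9 of 13 differences were below 0 (median -0.08), and in hearts 8 of 13 (median -0.06). Without WT cardiomyocyte replicate 3 the first count was 6 of 13 and the median 0.04.

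Tlr3, which senses double-stranded RNA and signals through Ticam1 rather than Myd88, was the receptor with the smallest p in both. It had 6.54, 6.46 and 6.69 in KD and 6.92, 6.83 and 7.10 in WT cardiomyocytes, and 6.91 and 6.75 in KD and 7.21 and 7.34 in WT hearts. All KD arrays lay below all WT arrays within each kind of sample. Of all genes, 6.21% in cardiomyocytes and 29.6% in hearts had arrays that did not overlap. The share that did so in both was not computed. The Tlr3 difference was -0.39 (SE 0.11, interval -0.62 to -0.15) in cardiomyocytes and -0.44 (SE 0.13, interval -0.73 to -0.16) in hearts. Neither passed, with adjusted p of 1 and 0.95 from limma, and the KD heart values lay below background. Cd14, the co-receptor that hands lipopolysaccharide to Tlr4, differed by -0.23 (SE 0.13) in cardiomyocytes, and by -0.10 without WT replicate 1, at signals below background on every array. Cd36, a fatty acid transporter and co-receptor of Tlr2, differed by -0.31 (SE 0.11) in hearts.

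The signalling machinery downstream gave signal above background for nearly every gene. Of 17 adaptors and kinases, 16 lay above background on every cardiomyocyte array and 16 on every heart array. Their differences were below 0 for 9 of 17 in cardiomyocytes (median -0.02) and 8 of 17 in hearts (median 0.01). Tab3, an adaptor of the kinase Map3k7, differed by -0.23 (SE 0.11) in cardiomyocytes and 0.24 (SE 0.13) in hearts. Irak2, a kinase recruited by Myd88, differed by 0.11 (SE 0.10) in cardiomyocytes, and by 0.06 without WT replicate 3. Map3k7 differed by -0.24 (SE 0.14) in hearts, and by -0.07 without KD heart replicate 2.

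Of 14 NF-kappaB subunits and inhibitors, 7 differences were below 0 in cardiomyocytes (median -0.02) and 4 in hearts (median 0.03). The heart count was 7 after centring on array medians or without WT heart replicate 1, and 2 without WT heart replicate 2. Rel, an NF-kappaB subunit, averaged 8.80 ± 0.08 in KD cardiomyocytes and 9.19 ± 0.42 in WT cells (SD, n = 3 each); its difference of -0.39 (SE 0.19) was -0.16 without WT replicate 3. Nfkbiz, a nuclear relative of Nfkbia, differed by -0.26 (SE 0.12) in cardiomyocytes, and by -0.13 without KD replicate 1. In hearts, Tnfaip3, an enzyme that damps NF-kappaB signalling, averaged 7.41 ± 0.45 in KD hearts and 6.92 ± 0.07 in WT hearts (SD, n = 2 each). Its difference of 0.49 (SE 0.20) was 0.17 without KD heart replicate 1, and that of Nfkbie, another inhibitor, was 0.32 (SE 0.14) and 0.15 without that array. That array was also the only heart on which either gene lay above background.

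**Figure D3:**
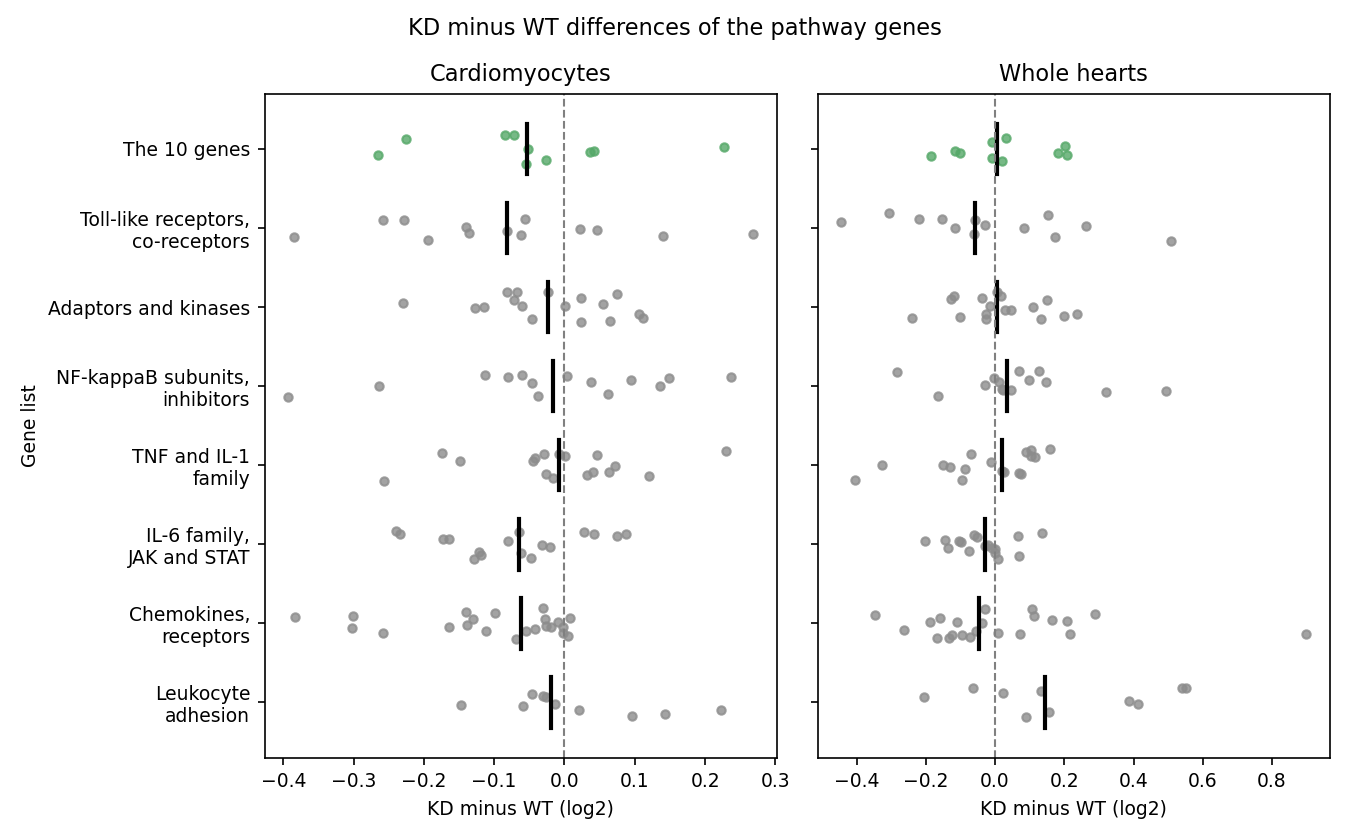
KD minus WT difference in log2 intensity of every measured gene of the 7 pathway lists (grey points, 110 genes) and of the 10 genes (green points), with the list median (bar), in cardiomyocytes and in hearts. Medians of the 7 lists lay between -0.08 and -0.01 in cardiomyocytes and between -0.06 and 0.14 in hearts, and no point passed the test.

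In the 2 cytokine lists, 10 measured genes are receptors or receptor chains and 8 are ligands or a ligand antagonist, a grouping made after the values were seen. Of the receptors, 6 lay above background on every array (Tnfrsf1a, Tnfrsf1b, Il6ra, Il6st, Lifr and Osmr), Il1rap on 1 array, and Il1r2, Il18r1 and Il18rap on none. Of the ligands, Ctf1 lay above background on every array and Il33 on all 4 heart arrays alone, while Il1a, Il1rn, Il18, Lif, Osm and Il11 did so on none. Of 17 genes of the TNF and interleukin-1 families, 9 differences were below 0 in cardiomyocytes (median -0.01) and 8 in hearts (median 0.02). Tradd, an adaptor of the TNF receptor, differed by 0.23 (SE 0.10) in cardiomyocytes, at signals around background. Its distance from that level was 0.11 to 0.13 on the KD arrays and -0.14 to 0.02 on the WT arrays. The decoy receptor Il1r2 differed by -0.26 (SE 0.12) in cardiomyocytes at signals below background, and by -0.12 without KD replicate 1. In hearts Il18 differed by -0.33 (SE 0.11) and Casp1, the protease that matures Il1b, by -0.40 (SE 0.15), both at signals below background.

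Of 17 genes of the interleukin-6 family and its JAK and STAT pathway, 13 differences were below 0 in cardiomyocytes (median -0.06) and 13 in hearts (median -0.03). The heart count was 9 of 17 after quantile normalization, 8 of 17 with a loess trend on intensity removed (median 0.02) and 9 of 17 without WT heart replicate 1. Lif, an interleukin-6 relative, differed by -0.23 (SE 0.12) in cardiomyocytes below background, or -0.11 without KD replicate 1, and the kinase Jak2 by -0.24 (SE 0.14), or -0.06 without WT replicate 3. In hearts Ptpn11, a phosphatase of this pathway, differed by -0.20 (SE 0.11) and Cish, a relative of Socs3, by -0.15 (SE 0.12).

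Of 22 further chemokines and chemokine receptors, 20 differences were below 0 in cardiomyocytes (median -0.06) and 13 in hearts (median -0.05; 9 of 22 and 0.03 without WT heart replicate 2). The cardiomyocyte count was 13 of 22 without WT replicate 3 and 14 of 22 without KD replicate 1, and 0 of the 22 passed. Macrophage markers lay on the same side: 10 of 11 had a difference below 0 in cardiomyocytes. Their summed signal was 9.09 to 9.27 (log2) in KD and 9.07 to 9.89 in WT cardiomyocytes, with WT replicate 3 the highest. Of these markers Csf1r, C1qa, C1qb, Lyz2 and Mertk were above background on 6 of 6 arrays, Cd68 on 5 and C1qc on 2, and Adgre1, Fcgr1, Mrc1 and Cd163 on 0. Their part in these values was not tested. Cx3cl1, a membrane-bound chemokine, differed by -0.30 (SE 0.13), and Cxcl2, which draws neutrophils, by -0.30 (SE 0.21) below background, or -0.14 without WT replicate 3 and -0.59 without WT replicate 2.

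In hearts, Cxcr4, the receptor of Cxcl12 and abundant on thymocytes, averaged 10.68 ± 1.11 in KD hearts and 9.78 ± 0.16 in WT hearts (SD, n = 2 each). Its difference of 0.90 (SE 0.34) was 0.11 without KD replicate 1. Cxcl5, a neutrophil attractant, differed by -0.26 (SE 0.12) in hearts, below background, or -0.12 without KD replicate 1 and -0.40 without KD replicate 2.

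Of 10 leukocyte adhesion molecules, 6 differences were below 0 in cardiomyocytes (median -0.02) and 2 in hearts (median 0.14). Icam2, an endothelial ligand of leukocyte integrins, differed by 0.22 (SE 0.10) and Sele, an endothelial selectin, by -0.15 (SE 0.10) in cardiomyocytes. In hearts Selplg, a selectin ligand of leukocytes, differed by 0.54 (SE 0.22) and Itgb2, an integrin subunit of leukocytes, by 0.55 (SE 0.27). Without KD heart replicate 1 these were 0.09 and -0.07, and the list median was -0.03 with 5 of 10 above 0. The summed signal of thymocyte markers was 13.58 (log2) on KD replicate 1, 9.91 on KD replicate 2 and 9.65 to 9.95 on the WT hearts. That of T cell markers was 12.23 on KD replicate 1, 10.44 on KD replicate 2 and 10.35 to 10.62 on the WT hearts. The part of these cells in the adhesion values was not tested.

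The median distance of the 10 genes from the WT mean was 0.01 on both KD hearts, with members on both sides of it. Of 8 neutrophil markers S100a8, S100a9, Ly6g, Retnlg and Ngp lay above background on no array, Camp on 4 cardiomyocyte and 4 heart arrays, Elane on 4 cardiomyocyte arrays and Mpo on 2. In hearts the macrophage markers summed to 12.76 to 12.88 in KD and 12.67 to 12.96 in WT, and those of fibroblasts to 14.02 to 14.04 in KD and 14.21 to 14.24 in WT, so fibroblast markers did not overlap between the groups and macrophage markers did. Endothelial, smooth muscle and pericyte, cardiomyocyte and red cell marker lists of hearts did not overlap either. Endothelial markers summed to 12.89 to 12.92 in KD and 13.01 to 13.13 in WT. Smooth muscle and pericyte markers summed to 13.66 to 13.76 in KD and 13.84 to 13.94 in WT. Cardiomyocyte markers summed to 16.73 to 16.75 in KD and 16.80 to 16.89 in WT. Red cell markers summed to 12.44 to 12.67 in KD and 11.51 to 12.15 in WT. Among the pathway lists, Toll-like receptors and co-receptors did not overlap (13.30 to 13.39 in KD and 13.56 to 13.64 in WT). The interleukin-6 list did not overlap (13.56 to 13.58 in KD and 13.61 to 13.63 in WT). On the same measure the 10 genes did not overlap either (11.627 to 11.631 in KD and 11.576 to 11.583 in WT). Nor did the sum over all genes (22.898 on both KD hearts and 22.945 to 22.950 in WT). Such a sum weighs the brightest genes most. Nfkbia, the brightest of the 10 in hearts, lay at 10.14 to 10.15 in KD and 9.91 to 10.02 in WT. Of single genes, 29.6% had heart arrays that did not overlap. Immediate early genes, 12 of 12 above background on every cardiomyocyte array, had a median difference of 0.0015 in cardiomyocytes. The part of these cell types in the values of the 10 genes was not tested.

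**Figure D4:**
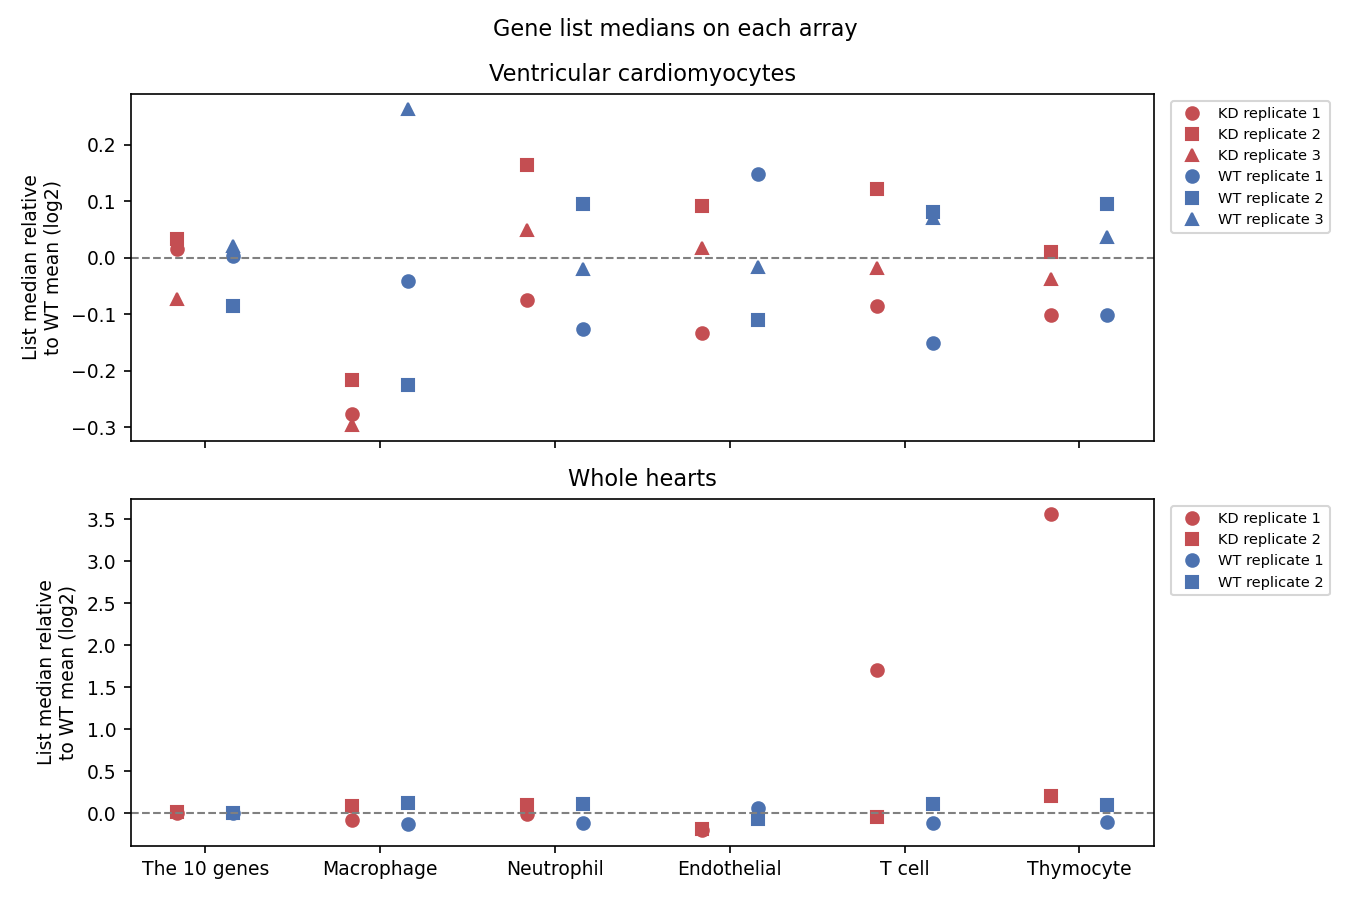
Median over each gene list of the log2 intensity relative to the WT mean of the same kind of sample, for the 10 genes and for marker lists of 5 other cell types, with KD left of WT and each point an array; the vertical scales of the 2 panels differ. Thymocyte and T cell markers of KD heart replicate 1 lie at 3.56 and 1.71. Macrophage markers lie at -0.04, -0.23 and 0.26 on WT cardiomyocyte replicates 1, 2 and 3. They lie between -0.30 and -0.22 on the KD cardiomyocytes, so the groups overlap. The medians over the 10 genes lie between -0.08 and 0.03 on all arrays.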

How the data were processed

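Biotin-labelled cDNA was put on Affymetrix arrays, and the labels' protocols name different labelling manuals for cardiomyocytes and hearts. The authors deposited log2 intensities of 35556 probe sets, made with RMA and Partek per the submitters' processing notes; neither version nor setting is given in the sources used here. This summary compresses differences between dim signals. A single gene symbol was listed for 21789 of them, and for 999 genes with several the one with the highest mean was kept, which left 19938 genes, unfiltered.

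All 10 arrays were fitted with 4 group means in limma 3.58.1 under R 4.3.3 (eBayes with an intensity trend; 6 residual degrees of freedom), two-sided, at a Benjamini-Hochberg adjusted p of 0.05 across the 19938 genes. Permutation tests cannot go below 0.1 for 3 against 3 or 0.333 for 2 against 2. The code was tested on simulated data. The named genes were the 10 members and the 2 genes of each list with the smallest p in each KD comparison. The closest profiles to the 3 most variable members, among the genes kept for that search, were also named. Genes named for being above or below background, and marker genes, were chosen after their values were seen. The members, lists and tests were chosen with earlier results of these data known.

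Alternatives were other scalings, filters on dim genes, other probe set rules, single-tissue fits, array weights, other eBayes settings, the replicate number as a block and leaving out each array.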

Additional observations from a re-analysis of the deposited data

How the results depend on the processing

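No gene of the 10 passed the test under any alternative that was run. With 2 or 3 arrays a group, the intervals do not exclude modest differences, and for Tnf, Il1b and Il6 signals at background limit any statement. Over all genes, an unadjusted p under 0.05 gave 419 in cardiomyocytes, 982 in hearts and 696 for the difference between them. Leaving out 1 array gave 0 to 0, 0 to 303 and 0 to 237 calls; the highest counts came without KD heart replicate 2, which leaves KD heart replicate 1 as the lone KD heart, assumed to vary like the other groups, and then Cxcr4 (1.69), Selplg (1.00) and Itgb2 (1.17) were called. With the replicate number as a block, 1 gene was called in hearts, Clec1b (1.17), named because its call was seen. In cardiomyocytes same-numbered arrays had correlations of their deviations of 0.152, 0.131 and -0.052, and different-numbered arrays of -0.188 to 0.066. In hearts these were 0.234 and -0.234. With 2 arrays a group the deviations mirror each other, so these values had to be equal and opposite. The main fit did not pair arrays by number, and whether the numbers pair the samples was not tested. With the block, and also with array weights, 1 of the 10 genes had an unadjusted p under 0.05 from limma in cardiomyocytes. The heart median of the 10 genes was 0.0024 after quantile normalization, -0.026 after centring, 0.021 under either filter on dim genes, 0.0025 with a loess trend removed, and 0.0078 to 0.029 without 1 array.

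Signs turned as follows. With array weights Tlr2 was -0.016 in cardiomyocytes, and -0.0076 for the difference between the effects. With centring, hearts gave Socs3 -0.011 and Icam1 -0.0021. For Il1b the difference between the effects was 0.029 after quantile normalization, 0.0075 after centring and 0.035 with the loess trend removed. Without 1 array, cardiomyocyte differences ran from -0.054 to 0.090 for Tlr2, -0.063 to 0.21 for Nfkbia, -0.13 to 0.015 for Tnf, -0.11 to 0.099 for Il1b, -0.16 to 0.022 for Il6, -0.20 to 0.14 for Ccl2 and -0.23 to 0.014 for Icam1. Heart differences ran from -0.067 to 0.051 for Tlr2, -0.38 to 0.014 for Tlr4, -0.11 to 0.091 for Il1b, -0.0027 to 0.045 for Socs3, -0.080 to 0.14 for Icam1 and -0.069 to 1.17 for Itgb2. Differences between the effects ran from -0.046 to 0.10 for Tlr2, -0.24 to 0.029 for Nfkbia, -0.12 to 0.11 for Il1b and -0.064 to 0.12 for Il6. Medians of the pathway lists also turned. In cardiomyocytes they reached 0.044 for Toll-like receptors without WT replicate 3, 0.012 for adaptors and kinases without KD replicate 2, and, each under several settings, 0.021 for NF-kappaB genes, 0.020 for the TNF and interleukin-1 families and 0.060 for adhesion molecules. In hearts they reached -0.027 for adaptors and kinases with centring, -0.041 for the TNF and interleukin-1 families with the background filter, 0.015 for the interleukin-6 list with the loess trend removed, 0.027 for chemokines without WT replicate 2 and -0.031 for adhesion molecules without KD replicate 1. The causes were not tested.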
